A study of Mus musculus with 18 samples.

Results

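Ccl2, Ccl6, Ccl7, Ccl8, Ccl9 and Cxcl12 are chemokine genes, and Ccr2 encodes a chemokine receptor of monocytes. These 7 genes were measured by 9 of the 12488 probe sets of a mouse expression array, 1 for each gene except Cxcl12, which had 3 (100112_at, 160511_at and 162234_f_at). A probe set was taken when the platform annotation gave it a single gene symbol and that symbol was one of the 7. All 9 passed a filter on dim signal, as did 8888 probe sets in all. Total RNA had been prepared from mice aged 8 weeks, from extraocular muscle, which moves the eyeball, from leg muscle and from heart. In each tissue 3 arrays were labelled mdx and named as the control, and 3 were labelled dKO (written dko here), which makes 6 groups and 18 arrays. The mdx mouse carries a mutation of Dmd, the dystrophin gene, and dko is the common name of mice that also lack utrophin, the related protein encoded by Utrn. The labels spell out neither the alleles nor the strain, they do not say which leg muscles were taken, and a group with intact dystrophin was not analysed here. The labels also do not say that the replicates were separate animals, so the p-values speak to array-to-array spread alone, and part of that spread may be technical.

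Chemokines are small secreted proteins that steer leukocytes through G-protein-coupled receptors. Ccr2 is the receptor through which inflammatory monocytes leave the bone marrow and enter injured tissue, and Ccl2 and Ccl7 are its main ligands. Dystrophin-deficient muscle passes through cycles of fibre death and repair and holds many macrophages, most of them descended from such monocytes, whereas Cxcl12 is made by stromal and endothelial cells of many healthy tissues and acts through Cxcr4.

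The values were intensities on a linear scale, scaled before deposit to about the same trimmed mean on each array, and medians ran from 525.6 to 671.8. In every group the array numbered 3 differed from the others, with medians of 525.6 to 573.75 against 612.6 to 671.8 on the others. Departures from the group mean were shared by arrays that carried one number, within a tissue and between tissues. Each test was therefore also fitted with the number as a block. The labels do not say what the number marks or that same-numbered arrays were matched. The Utrn probe set 92507_at was lower on every dko array than on every mdx array in each tissue, with dko group means of 258.1 to 304.8 and mdx group means of 493.6 to 748.1. The second Utrn probe set, 92508_s_at, overlapped between the genotypes in leg. Marker genes separated heart from the skeletal muscles: Myh6, a heart myosin, averaged 35189 and 32092 in the heart groups and at most 1242 elsewhere, and Pvalb, of fast fibres, averaged at least 20249.5 in the leg and extraocular groups and at most 153.0 in heart. Pvalb also lay at 26156.1 or above on the leg arrays and at 24033 or below on the extraocular arrays. Myh3 and Myh8, developmental myosins that extraocular muscle keeps, were higher there than on every leg mdx array, but Myh3 at 9979.7 to 21624.8 and Myh8 at 3690.7 to 8629.1 overlapped with leg dko, at 6628.4 to 11845.7 and 3802 to 5722. Leg mdx array 2 stood apart in fast-fibre genes, with Myh4 at 461.3 (10917.9 and 48678.2 on leg mdx arrays 1 and 3) and Actn3 at 520.2 (10541.9 and 39332). Myh13, a myosin of extraocular muscle, was not analysed here.

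Promoter sequences were found for 5 of the 7 genes among the RefSeq promoters of build GRCm38.p6, each covering 250 bases before the transcription start and 50 after it. Ccl2 and Ccl7 were not among them. Shown here are Ccl8, which had the largest leg difference between the genotypes, Ccl9, the neighbour of Ccl6, and Cxcl12, which passed the test between tissues and in no comparison of the genotypes. They run 5′ to 3′ along the gene's strand, and capitals mark matches, on either strand, to the letters of the TATA box (TATAAA), of the GC box bound by Sp1 (GGGCGG), of the core site of the myeloid factor PU.1 (GAGGAA) and of the STAT factors (TTCNNNGAA), or to the NF-kappa-B consensus.
Ccl8: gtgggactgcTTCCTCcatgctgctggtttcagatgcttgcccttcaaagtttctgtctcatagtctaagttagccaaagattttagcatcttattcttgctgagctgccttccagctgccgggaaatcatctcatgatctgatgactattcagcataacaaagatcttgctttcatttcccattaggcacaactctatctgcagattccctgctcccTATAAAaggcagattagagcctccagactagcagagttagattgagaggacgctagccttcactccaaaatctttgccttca
Ccl9: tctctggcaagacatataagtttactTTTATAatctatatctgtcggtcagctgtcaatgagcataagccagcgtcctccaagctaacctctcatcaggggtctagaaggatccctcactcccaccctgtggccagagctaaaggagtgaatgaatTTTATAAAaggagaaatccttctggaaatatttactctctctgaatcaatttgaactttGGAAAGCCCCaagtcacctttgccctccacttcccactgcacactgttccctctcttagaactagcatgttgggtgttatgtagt
Cxcl12: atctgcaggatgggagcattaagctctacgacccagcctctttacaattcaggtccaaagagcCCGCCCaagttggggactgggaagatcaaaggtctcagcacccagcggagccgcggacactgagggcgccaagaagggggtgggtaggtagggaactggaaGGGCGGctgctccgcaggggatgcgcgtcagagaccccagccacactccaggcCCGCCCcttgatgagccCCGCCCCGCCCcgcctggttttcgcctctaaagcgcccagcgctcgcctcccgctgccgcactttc
The Ccl8 window lies at chr11:82114935-82115234 on the plus strand, the Ccl9 window at chr11:83578587-83578886 on the minus strand and the Cxcl12 window at chr6:117168285-117168584 on the plus strand. In Ccl8, TATAAA begins 32 bases before the start site, and the capitals farther upstream are the PU.1 core read on the other strand. In Ccl9, the run of capitals beginning 35 bases before the start match the NF-kappa-B consensus on the other strand, and the TATAAA matches begin 92, 94 and 224 bases before it, of which the nearer pair overlap. The Cxcl12 window has no TATAAA and 5 matches to GGGCGG, of which 2 overlap by 1 base, and 64.7% of its bases are G or C against a median of 52.7% over all 32851 promoters. Among those promoters, 13.6% held the TATA letters on either strand, 35.7% the GC box, 28.3% the PU.1 core, 8.46% the NF-kappa-B consensus and 8.30% the STAT letters. The Ccr2 and Ccl6 windows held none of the 5 motifs. By gene order Ccl2 and Ccl7 are neighbours on chromosome 11, as are Ccl9 and Ccl6, and Ccr2 lies on chromosome 9.

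The first question was how the 7 genes differed between dko and mdx in each tissue. In extraocular muscle Ccl2, Ccl7 and Ccr2 read higher on every dko array than on every mdx array, and in leg muscle Ccl8 and Ccr2 did. In heart no probe set of the 9 separated the genotypes. Every dko array lay above every mdx array for 2.99% of all probe sets in extraocular muscle, 5.02% in leg and 1.76% in heart. At that share, 0 of 9 in heart does not set these genes apart. The difference passed the test for Ccl8 in leg, 3.46-fold higher in dko, when same-numbered arrays were compared within a block, and for none of the 9 without the block. Of all probe sets, 1.2% passed in leg with the block and 0.0563% without it. In bulk RNA of this kind, more cells of a type and more RNA per cell cannot be told apart.

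**Figure D1:**
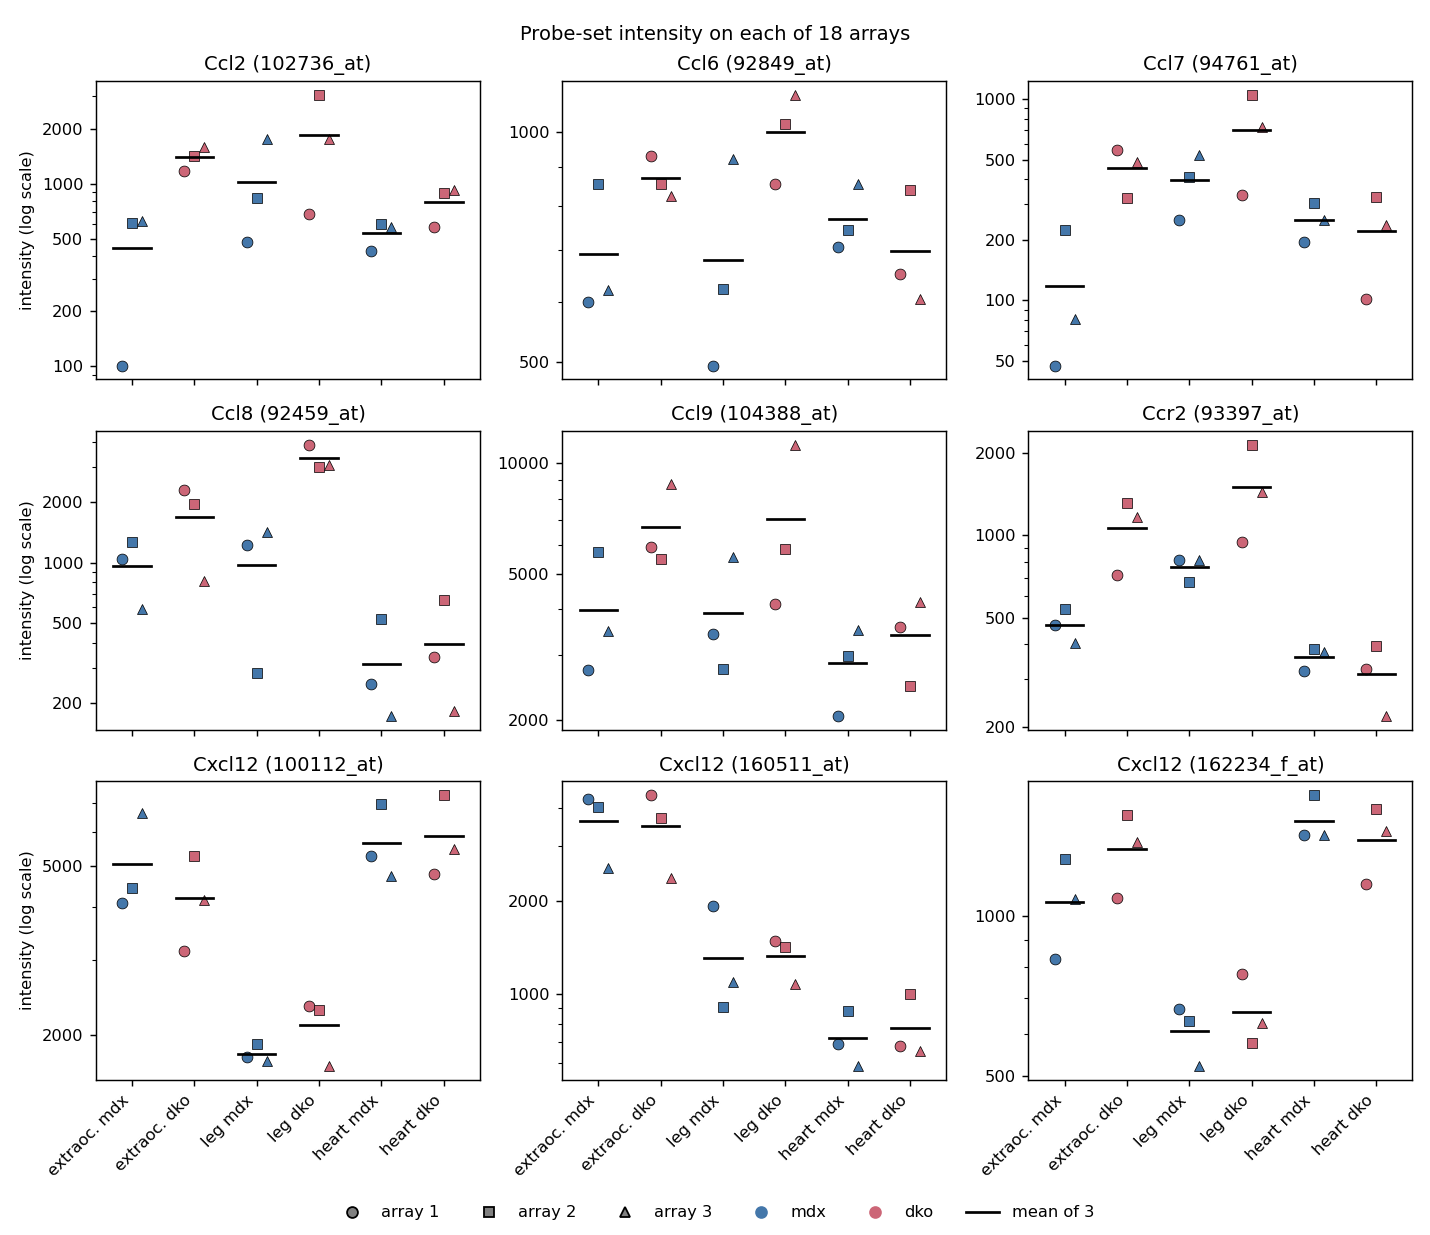
Intensity (log scale) of each of the 9 probe sets on each of the 18 arrays, by tissue and genotype, with marker shapes for arrays 1, 2 and 3 and a line at each group's mean. In the Ccr2 panel both heart groups lie at or below 394.4, the extraocular mdx arrays at 404.2 to 536.4 and all the other arrays at 678.3 or above.

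Ccl2, the chief ligand of Ccr2, read 100.6, 606.1 and 622.7 on extraocular mdx arrays 1, 2 and 3 and 1177.8, 1424 and 1579.6 on the dko arrays. The dko arrays lay above all the mdx arrays, and the mdx array 1 was far below the rest of its group. On the log2 scale after 166.7 was added to each intensity, the scale of every difference and fold given here, dko exceeded mdx by 1.51 ± 0.49 (SE), or 2.84-fold. Without mdx array 1 the Ccl2 difference was 0.99. The adjusted p of this difference was 1.00 by limma and 0.185 with the block. In leg muscle Ccl2 read 476, 837.7 and 1754.3 in mdx and 680.4, 3071.8 and 1750.9 in dko. The leg groups overlapped, and the difference of 0.69 ± 0.49 came mainly from the pair of arrays numbered 2, which differed by 1.69 while the pair numbered 3 differed by less than 0.01. In heart Ccl2 read 426.1, 602.9 and 575.1 in mdx and 576.6, 889.5 and 921.5 in dko. Each dko heart array exceeded the mdx array of its number, by 0.33, 0.46 and 0.55, but the groups overlapped and the difference of 0.45 ± 0.49 had an adjusted p of 0.943 with the block (limma).

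Ccl7, a second ligand of Ccr2 encoded next to Ccl2, was the dimmest of the 9. Its extraocular values were 47.3, 224.5 and 80.5 in mdx and 561.2, 323.9 and 485.4 in dko. All 3 dko arrays were higher than all 3 mdx arrays, by 1.16 ± 0.33 (limma adjusted p 0.928, and 0.234 with the block). The offset of 166.7 lies above 2 of these mdx values and compresses differences at this level, the ratio of the group means of Ccl7 was 3.89 without it, and detection calls were not given in the sources used here. In leg, Ccl7 read 251.7, 411 and 526.3 in mdx and 334.1, 1052.5 and 730.2 in dko, so that each dko array exceeded its mdx counterpart while the groups overlapped. In heart the values were 195.2, 304.4 and 251.9 in mdx and 101.1, 325.5 and 237.7 in dko, and the difference of -0.14 was smaller than its error of 0.33. Across the 18 arrays the log2 values of Ccl2 and Ccl7 had a Pearson r of 0.88, and 0.80 after the group means were subtracted. These arrays share the 6 groups and the replicate numbers, so the correlation is a description only.

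Ccl8, whose mouse protein is known as a ligand of Ccr8, read 1225, 283.8 and 1418.2 on leg mdx arrays 1, 2 and 3 and 3860.8, 2995.1 and 3053.7 on the leg dko arrays. The lowest dko array was above the highest mdx array, and mdx array 2 was far below the rest of its group. The leg difference was 1.79 ± 0.48, or 3.46-fold, the largest genotype difference of the 9 probe sets in any tissue. It had a limma adjusted p of 0.331 without the block and 0.0204 with it. Without leg mdx array 2, the array with low Myh4, the blocked difference was 1.28 with an adjusted p of 0.092. It was 1.92 with an adjusted p of 0.0747 when either leg array 1 was left out, and 2.17 with an adjusted p of 0.0171 when either leg array 3 was. With an offset of 32 the blocked adjusted p of Ccl8 was 0.0552, and without the arrays numbered 3 it was 0.0914.

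In extraocular muscle Ccl8 read 1037, 1268.4 and 585.7 in mdx and 2294, 1959.1 and 807.3 in dko. The arrays numbered 3 were the lowest of both genotypes, so the groups overlapped although each dko array exceeded the mdx array of its number. The difference was 0.66 ± 0.48 (limma adjusted p 0.587 with the block). In heart Ccl8 read 249, 521.4 and 172.5 in mdx and 340.1, 654.1 and 181.7 in dko. The order of the 3 numbers was the same in both genotypes, and the pairs differed by only 0.29, 0.25 and 0.04. Ccl8 was higher in dko in 9 of 9 same-numbered pairs, as were 1.1% of the 8888 probe sets tested. Ccl2 and Ccr2 were higher in 8 of 9 pairs, and at least 8 of 9 was reached by 4.42% of all.

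Ccl9, a ligand of Ccr1, read 2739.6, 5715.5 and 3502.7 in extraocular mdx and 5895.2, 5479.1 and 8756.2 in extraocular dko. The genotypes overlapped through the arrays numbered 2, and the difference was 0.76 ± 0.37. In leg Ccl9 read 3429.7, 2754.9 and 5557 in mdx and 4138.1, 5832.4 and 11200.8 in dko. Each leg dko array exceeded its mdx counterpart, with a difference of 0.76 ± 0.37 (limma adjusted p 0.189 with the block), and the highest value by far was dko array 3. In heart the values were 2052.6, 2986.7 and 3517.4 in mdx and 3585.9, 2481.3 and 4176.1 in dko, which overlapped, with a difference of 0.25 ± 0.37.

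Ccl6, another ligand of Ccr1 and the neighbour of Ccl9, varied the least of the 9 between groups. In leg it read 494.4, 623.6 and 922.9 in mdx and 854, 1023.4 and 1119.9 in dko, higher in dko within each pair and overlapping between the groups. Its leg difference was 0.49 ± 0.20 (limma adjusted p 0.688, and 0.146 with the block). In extraocular muscle Ccl6 read 598.7, 854.6 and 621.5 in mdx and 931.7, 856.2 and 824.7 in dko, and the pair numbered 2 was level, so that the difference of 0.28 had a 95% interval of -0.15 to 0.72. In heart Ccl6 read 706.3, 744.9 and 856.1 in mdx and 651.9, 839.5 and 605.5 in dko, a difference of -0.12 that was smaller than its error of 0.20.

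Ccr2, the receptor, read 472.3, 536.4 and 404.2 in extraocular mdx and 717.9, 1308.3 and 1168.2 in extraocular dko. The groups did not overlap, and dko was 0.92 ± 0.26 higher, or 1.89-fold (limma adjusted p 0.857, and 0.289 with the block). In leg Ccr2 read 812.5, 678.3 and 812.7 in mdx and 944.6, 2139.7 and 1435.8 in dko. These groups did not overlap either, with a difference of 0.78 ± 0.26, or 1.72-fold (limma adjusted p 0.469, and 0.128 with the block). Without leg dko array 2, the highest, the difference of Ccr2 was 0.52, and with the block it was 0.45 without either leg array 2. In heart Ccr2 read 319.5, 384.9 and 376.2 in mdx and 326.1, 394.4 and 219.3 in dko. The first 2 pairs were level and dko array 3 was the lowest of all 18 arrays. Across the 18 arrays the log2 values of Ccr2 and Ccl8 had an r of 0.80, and 0.13 after the group means were subtracted.

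Cxcl12 did not separate the genotypes in any tissue by any of its 3 probe sets. For 100112_at the extraocular values were 4071.3, 4425.4 and 6648.3 in mdx and 3154.5, 5273.3 and 4142.1 in dko, the leg values 1769, 1904 and 1738.7 in mdx and 2339.6, 2291.9 and 1686.4 in dko, and the heart values 5262.1, 6966.2 and 4720.7 in mdx and 4766.7, 7326 and 5469.4 in dko. The genotype differences of the 3 probe sets in the 3 tissues ran from -0.26 to 0.29, all with 95% intervals that spanned 0 without the block. With the block the interval of 162234_f_at in extraocular muscle was 0.02 to 0.57, and dko was higher there in all 3 same-numbered pairs, by 0.33, 0.24 and 0.31, with a limma adjusted p of 0.576. For 100112_at the mean over the 3 tissues was -0.01 with an interval of -0.31 to 0.30, for 160511_at 0.03 with -0.33 to 0.39, and for 162234_f_at 0.09 with -0.15 to 0.34.

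**Figure D2:**
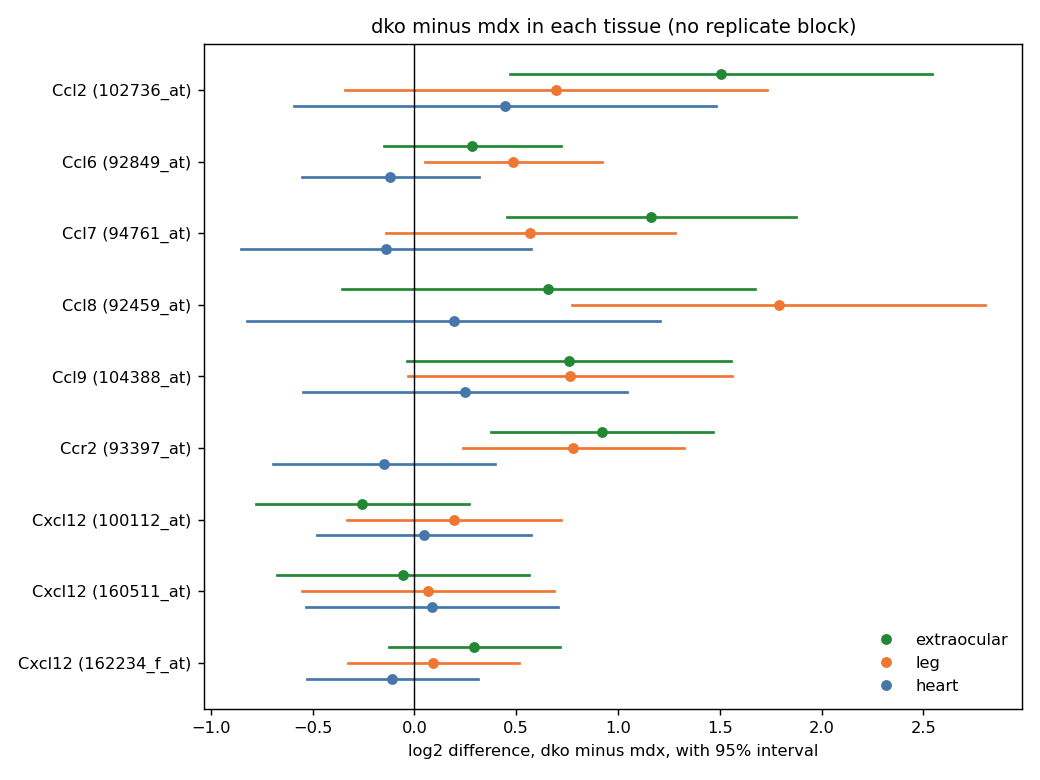
Difference in log2(intensity + 166.7), dko minus mdx, for each of the 9 probe sets in extraocular muscle, leg and heart, with 95% intervals from the limma fit without the block; the vertical line marks 0. In the extraocular and leg series the intervals of Ccr2 lie above 0, as do those of Ccl2 and Ccl7 in extraocular muscle and of Ccl6 and Ccl8 in leg, and every heart interval spans 0.

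The 9 probe sets, and the gene lists used below, were chosen with earlier results of these data known, so counts over them are descriptions. Counted over the 9 probe sets, every dko array lay above every mdx array for 3 in extraocular muscle, where 2.99% of all probe sets tested did so, for 2 in leg, where 5.02% did, and for 0 in heart, where 1.76% did. The reverse order was seen for 0 of the 9 in each tissue, against 2.66%, 4.93% and 2.16% of all probe sets. Adjusted p-values under 0.05 were reached by 0 of the 9 in extraocular muscle (0.0225% of all probe sets, and 0.158% with the block) and by 0 in heart (0% of all, either way). In leg they were reached by 0 of the 9 without the block (0.0563% of all) and by 1 with it, Ccl8 (1.2% of all). At an unadjusted p under 0.05 without the block there were 3, 3 and 0 of the 9 in extraocular muscle, leg and heart (2.21%, 6.26% and 1.46% of all, limma), and with it 6, 4 and 0 (8.07%, 17.8% and 5.56% of all). Within all 3 same-numbered pairs dko was higher for 6 of the 9 in extraocular muscle (14.6% of all), for 5 in leg (16.5%) and for 2 in heart (13.4%). The median difference of the 9 was 0.66 in extraocular muscle, 0.57 in leg and 0.05 in heart, beside medians of -0.01, -0.04 and -0.01 over all probe sets tested.

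Averaged over the 3 tissues, Ccl2 was 0.88 ± 0.28 higher in dko, Ccl8 0.88 ± 0.28, Ccl9 0.59 ± 0.22, Ccl7 0.53 ± 0.19, Ccr2 0.52 ± 0.15 and Ccl6 0.22 ± 0.12. Of the 9 probe sets 0 were called without the block (0.09% of all) and 1 with it, Ccl8 (limma adjusted p 0.0453, 0.788% of all called), while Ccl2 had 0.0582. At an unadjusted p under 0.05 there were 5 without the block (4.95% of all) and 6 with it (15% of all). The blocked call of Ccl8 held when either leg array 2 or either leg array 3 was left out and was lost when any other array was, with adjusted p-values from 0.0329 to 0.129. Genotypes were also exchanged within tissues in all 8000 possible ways, 1 test for each of the 9 probe sets, with two-sided p-values that were not adjusted. This exact permutation gave p = 0.01175 for Ccl2, 0.0155 for Ccl8, 0.01525 for Ccr2, 0.01775 for Ccl9, 0.0425 for Ccl7 and 0.07975 for Ccl6, and from 0.362 to 0.965 for the probe sets of Cxcl12. With exchange only within the 9 pairs, the exact permutation p was 0.00391 for Ccl8, the smallest the 512 exchanges can give, 0.00781 for Ccl2, 0.0273 for Ccl9, 0.043 for Ccr2, 0.0664 for Ccl7 and 0.0977 for Ccl6. Both permutations relabelled each tissue separately, and the averages took the arrays of the 3 tissues as independent. Same-numbered arrays of different tissues deviated alike (median r 0.54), and the labels do not say whether a mouse gave more than 1 tissue. If any did, the independent units are fewer than the arrays, and the errors and p-values of these averages may be too small. The genes were also chosen with earlier results of these data known, so the p-values of both permutations are descriptive.

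Whether the genotype difference itself differed between tissues was tested for each pair of tissues. By limma 0 of the 9 probe sets passed, with or without the block (0% of all probe sets without it for each pair of tissues, and 0.0338%, 0.0675% and 0% with it for extraocular against leg, heart against leg and extraocular against heart). At an unadjusted p under 0.05 without the block there were 2 of the 9 between heart and leg (2.91% of all), Ccl8 at -1.60 ± 0.68 and Ccr2 at -0.93 ± 0.36. Between extraocular muscle and heart there were also 2 (1.4% of all), Ccl7 at 1.30 ± 0.47 and Ccr2 at 1.07 ± 0.36, and between extraocular muscle and leg there were 0 (2.03% of all). With the block there were 3 between heart and leg (11.1% of all), which were Ccl6, Ccl8 and Ccr2, 4 between extraocular muscle and heart (5.96% of all), which were Ccl2, Ccl7, Ccr2 and the Cxcl12 probe set 162234_f_at, and 1 between extraocular muscle and leg (8.98% of all), which was Ccl8. The separation of genotypes in the skeletal muscles and its absence in heart are therefore not shown to differ for any of these genes at 3 arrays a group.

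The second question was how the levels differed between tissues, taken over both genotypes. Ccr2 and Ccl8 were lowest in heart, and Cxcl12 was higher in extraocular muscle than in leg by all 3 of its probe sets. Ccr2 was 2.45-fold and Ccl8 3.78-fold lower in heart than in leg (-1.29 ± 0.18 and -1.92 ± 0.34, limma adjusted p 6.77e-05 and 0.000596). In extraocular muscle they were 1.75-fold and 2.79-fold higher than in heart (0.81 ± 0.18 and 1.48 ± 0.34, adjusted p 0.00535 and 0.00609). Among mdx arrays alone, Ccr2 remained lower in heart than in leg (-0.83, adjusted p 0.0335) and Ccl8 did not pass (-1.12, adjusted p 0.263). Neither passed between extraocular muscle and heart in mdx alone (0.27 and 1.25, adjusted p 0.646 and 0.244), where Ccr2 did in dko alone (1.34, adjusted p 0.0358), as did Ccl8 (1.71, adjusted p 0.0343). Without the arrays numbered 3, Ccr2 did not pass between extraocular muscle and heart (0.75, adjusted p 0.0679). The comparisons between tissues share their arrays, each tissue entering 2 of them.

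By group mean, Ccr2 ran from leg dko at 1506.7 ± 600.7 (SD, n = 3) through extraocular dko at 1064.8 ± 308.5, leg mdx at 767.8 ± 77.5, extraocular mdx at 471.0 ± 66.1 and heart mdx at 360.2 ± 35.5 to heart dko at 313.3 ± 88.3. Neighbours in this order overlapped except leg mdx and extraocular mdx, and extraocular mdx and heart mdx. Ccl8 ran from leg dko at 3303.2 ± 483.8 through extraocular dko at 1686.8 ± 779.9, leg mdx at 975.7 ± 606.9, extraocular mdx at 963.7 ± 347.2 and heart dko at 392.0 ± 240.4 to heart mdx at 314.3 ± 183.4. Of these neighbours, leg dko alone did not overlap with the next.

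Leg dko also had the highest group mean of Ccl2, at 1834.4 ± 1197.9, of Ccl7, at 705.6 ± 359.8, of Ccl9, at 7057.1 ± 3687.2, and of Ccl6, at 999.1 ± 134.6. Extraocular dko was the next for each of them, and every neighbouring pair of groups overlapped in all 4 genes. Ccl2 and Ccl7 were lowest in extraocular mdx, at 443.1 ± 296.8 and 117.4 ± 94.2, Ccl9 in heart mdx, at 2852.2 ± 741.6, and Ccl6 in leg mdx, at 680.3 ± 219.8.

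Ccl7 was 1.70-fold lower in heart than in leg (-0.77 ± 0.24, limma adjusted p 0.0321). This call was lost, at adjusted p-values up to 0.0912, in 7 of the 12 fits that left out an array: leg mdx 2 or 3, leg dko 2 or 3, heart mdx 1 or 3, or heart dko 1. With the block it held in all 12. Without the arrays numbered 3 the difference of Ccl7 was -0.68 (adjusted p 0.202). Passing only with the block were Ccl2 (-0.75, adjusted p 0.0162) and Ccl9 (-0.66, 0.0186) between heart and leg, Ccl7 (-0.71, 0.0139) and Ccr2 (-0.48, 0.0352) between extraocular muscle and leg, and Ccl9 (0.68, 0.0187) between extraocular muscle and heart. Of these blocked calls, that of Ccl7 held in all 12 fits that left out an array. The call of Ccl2 was lost without leg mdx array 3 (adjusted p 0.0504), those of Ccl9 without heart dko array 2 (up to 0.0584) and, between heart and leg, also without leg dko array 3. The call of Ccr2 was lost without extraocular mdx array 2 or 3, extraocular dko array 1, leg mdx array 1 or 3, or leg dko array 2 or 3 (up to 0.101). Ccl6 passed in no comparison between tissues, with differences of -0.06, -0.13 and 0.07.

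In all, 3 of the 9 probe sets passed between extraocular muscle and leg (7.74% of all probe sets tested, and 5 and 20% with the block), 6 between heart and leg (19.1%, and 8 and 35.5% with the block) and 3 between extraocular muscle and heart (15.2%, and 4 and 30.1% with the block).

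**Figure D3:**
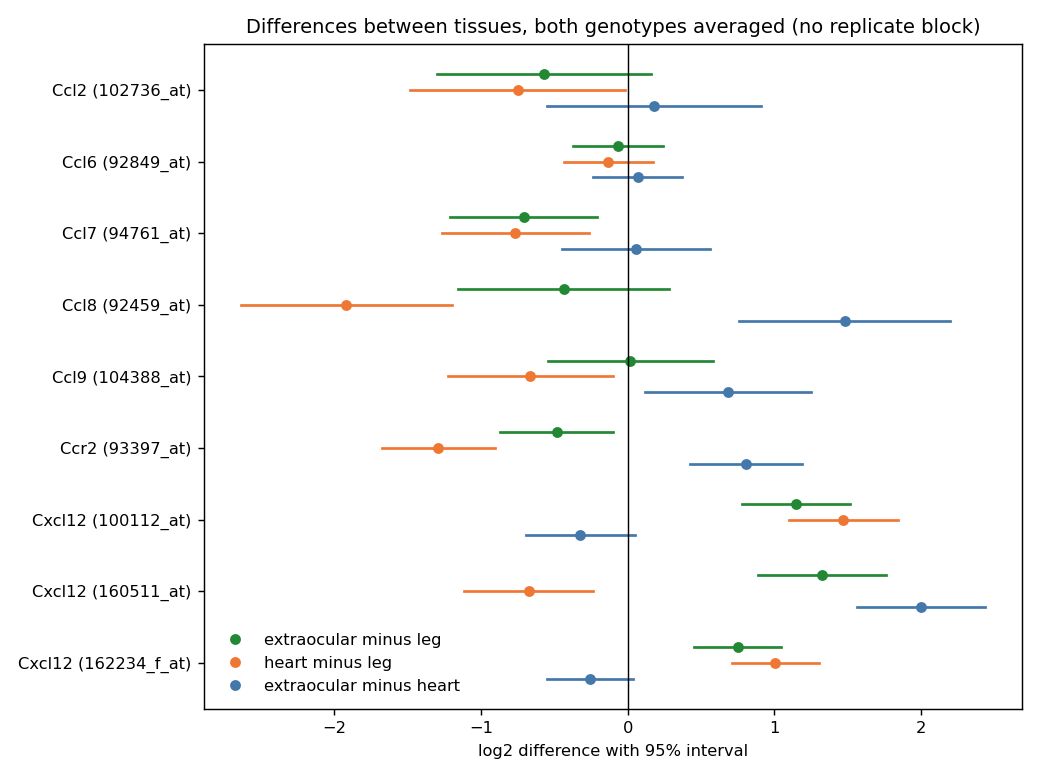
Difference in log2(intensity + 166.7) between tissues, averaged over mdx and dko, for each of the 9 probe sets, with 95% intervals from the limma fit without the block; the vertical line marks 0. Between heart and leg the Cxcl12 probe sets 100112_at and 162234_f_at lie at 1.47 and 1.01, whereas 160511_at lies at -0.68.

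The 3 probe sets of Cxcl12 disagreed on heart. Probe set 100112_at had its highest group means in heart, at 5854.0 ± 1322.3 in dko and 5649.7 ± 1171.9 in mdx, and 162234_f_at likewise, at 1503.4 ± 155.6 in mdx and 1389.2 ± 221.8 in dko. Probe set 160511_at had its lowest there, at 779.3 ± 193.1 in dko and 720.1 ± 149.7 in mdx, and its highest in extraocular muscle, at 3616.8 ± 935.4 in mdx and 3491.8 ± 1024.0 in dko. Against leg, heart was thus 2.77-fold and 2.01-fold higher by the first 2 (limma adjusted p 1.2e-05 and 5.86e-05) and 1.60-fold lower by the third (-0.68 ± 0.21, adjusted p 0.0299, and 0.00301 with the block). Without the block, the heart and leg difference of 160511_at lost its call in 7 of the 12 fits that left out an array (leg mdx 1, leg dko 1 or 2, heart mdx 1 or 3, heart dko 1 or 3), at adjusted p-values up to 0.0815. Extraocular muscle exceeded leg by all 3, by 2.22-fold, 2.51-fold and 1.68-fold for 100112_at, 160511_at and 162234_f_at (adjusted p 0.000547, 0.000653 and 0.00243). In mdx alone this difference passed by 100112_at (adjusted p 0.0274) and not by 160511_at or 162234_f_at (0.0635 and 0.228), and in dko alone it passed by none of them (0.188, 0.0717 and 0.134). Without the arrays numbered 3 it was not called by 162234_f_at (adjusted p 0.0659), nor was heart against leg by 160511_at (0.0541).

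On each array the log2 value of 100112_at less that of 160511_at showed how the 2 probe sets parted, a measure chosen after the values were seen. It averaged 2.69 ± 0.09 (SD, n = 6) in heart, 0.54 ± 0.35 in leg and 0.36 ± 0.64 in extraocular muscle. Heart did not overlap with either skeletal muscle, and leg and extraocular muscle overlapped. Since the measure was prompted by these values, no p-value is given for it. Over 18 arrays the r of log2 values was 0.91 between 100112_at and 162234_f_at and -0.02 between 100112_at and 160511_at. The files do not say which stretch of the transcript each probe set matches, so which of them follows Cxcl12 as a whole was not tested, and a direction for heart against leg is not given for the gene.

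The other genes of the chemokine system were taken from a list of 52 chemokines and receptors, of which 37 had a probe set with a single symbol and 19 passed the filter on dim signal. Between dko and mdx 0 of the 19 passed by limma in any tissue, with or without the block, where an unadjusted p under 0.05 was reached by 2, 0 and 1 of them in extraocular muscle, leg and heart (4, 5 and 4 with the block). Over all probe sets tested those shares were 2.21%, 6.26% and 1.46% (8.07%, 17.8% and 5.56% with the block). Of the 19, 11, 12 and 9 read higher in dko in extraocular muscle, leg and heart, where 48.8%, 44.7% and 47.5% of all probe sets tested did. Averaged over tissues 1 rose with the block, Ccr1, the receptor for Ccl6 and Ccl9, by 0.54 ± 0.18 (limma adjusted p 0.0453 with the block and 0.569 without). Of all probe sets, 0.788% were called on average over tissues with the block and 0.09% without it. Ccr1 read 308.6, 457.2 and 380.8 in leg mdx and 593.7, 712.4 and 539.2 in leg dko, with no overlap, and 78.7, 218.5 and 76.9 in heart mdx against 401.9, 428.6 and 126.4 in heart dko, which overlapped. Cxcr4, a receptor for Cxcl12, read 188, 134.8 and 249.4 in extraocular mdx and 330.6, 267.8 and 369.7 in extraocular dko, also without overlap. The difference of Cxcr4 was 0.46 ± 0.25 (limma adjusted p 0.445 with the block). In leg and in heart the genotypes overlapped for Cxcr4. Every dko array lay above every mdx array for 5.02% of all probe sets in leg and 2.99% in extraocular muscle. Ackr3, an atypical chemokine receptor of the list, went the other way, by -0.51, -0.48 and -0.29 in extraocular muscle, leg and heart. Its average over tissues was -0.43 ± 0.13 (limma adjusted p 0.0768 with the block).

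Ccl12, a further ligand of Ccr2 that lies beside Ccl8, read 65.3, 110.9 and 121.4 in extraocular mdx and 414.8, 264.6 and 225 in extraocular dko. All dko arrays were the higher, as for 2.99% of all probe sets there, by 0.80 ± 0.28 (limma adjusted p 0.264 with the block). In leg Ccl12 differed by 0.11, and in heart it read 279.8, 461.4 and 302.4 in mdx and 111.3, 304.4 and 283.6 in dko, lower in dko in each pair, by a difference of -0.39 ± 0.28. Ccl11, the eosinophil attractant next to Ccl7, averaged 1751.9 and 1458.1 in extraocular mdx and dko, 487.1 and 488.9 in leg, and 81.9 and 160.8 in heart. Its difference between extraocular muscle and heart was 2.63 ± 0.17 (adjusted p 1.35e-08). Its genotype differences were -0.22, -0.01 and 0.37 ± 0.24 in extraocular muscle, leg and heart and did not pass, with each heart dko array above the mdx array of its number. Cx3cr1, the receptor of patrolling monocytes, had genotype differences of -0.44, 0.01 and 0.09 in extraocular muscle, leg and heart, each smaller than its error of 0.48. Ackr1, the atypical chemokine receptor of red cells and venules, differed by 0.17, 0.35 and 0.25, also within its error of 0.41. Ccl3, Ccl4 and Ccl5 did not pass the filter on dim signal, with group means of 109.3 to 268.1, 76.0 to 116.9 and 59.8 to 223.3.

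Of 23 inflammatory cytokines and signalling genes known to induce chemokines, 19 had a probe set and 12 were tested. Between dko and mdx 0 of the 12 passed by limma in any tissue, with or without the block, where an unadjusted p under 0.05 was reached by 0, 4 and 0 of them in extraocular muscle, leg and heart (2, 4 and 0 with the block), beside 2.21%, 6.26% and 1.46% of all probe sets (8.07%, 17.8% and 5.56% with the block). Of the 12, 5, 10 and 7 read higher in dko, beside 48.8%, 44.7% and 47.5% of all. Nfkbia, the NF-kappa-B inhibitor that is itself a target of that factor, differed by -0.22, 0.19 and 0.20 with an error of 0.48, and Csf1, the macrophage growth factor, by -0.12, 0.18 and -0.26 with an error of 0.29. Tnf, Il1b and Il6 were too dim to be tested, with group means of at most 295.3, 157.4 and 73.9.

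Most macrophage marker genes read higher in dko in both skeletal muscles. Of a list of 25 macrophage and monocyte genes 24 had a probe set and 22 were tested, of which 20, 22 and 9 read higher in dko in extraocular muscle, leg and heart, with medians of 0.62, 0.86 and -0.06 (48.8%, 44.7% and 47.5% of all probe sets read higher, with medians of -0.01, -0.04 and -0.01). The count that passed was 1, 0 and 0 of the 22, and 3, 4 and 0 with the block, beside 0.0225%, 0.0563% and 0% of all, and 0.158%, 1.2% and 0% with the block. Whether the genotype difference differed between heart and a skeletal muscle passed for 0 of the 22 by limma, with or without the block. At an unadjusted p under 0.05 there were 9 against leg and 7 against extraocular muscle (13 and 12 with the block), beside 2.91% and 1.4% of all (11.1% and 5.96% with the block). The genes that passed between the genotypes were Ctss in extraocular muscle (2.00 ± 0.29, limma adjusted p 0.0203) and, with the block only, Lgals3 and Mpeg1 there (1.86 and 1.40, adjusted p 0.0333 and 0.0481) and Csf1r, C1qc, Cd53 and C1qb in leg (1.00, 0.91, 2.00 and 1.25, adjusted p 0.0456, 0.0204, 0.0415 and 0.0395). The summed intensity of the 24 was 31379 to 39223 in extraocular mdx and 68951 to 72618 in extraocular dko, 43315 to 78094 in leg mdx and 78815 to 147220 in leg dko, and 44962 to 47289 in heart mdx and 43974 to 47214 in heart dko. The skeletal dko arrays thus all lay above the mdx arrays of their tissue, and the heart groups overlapped. The brightest of the 24 were Lyz2, Ctss and C1qc, none of the 24 was at 0, and their part in the chemokine differences was not tested.

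**Figure D4:**
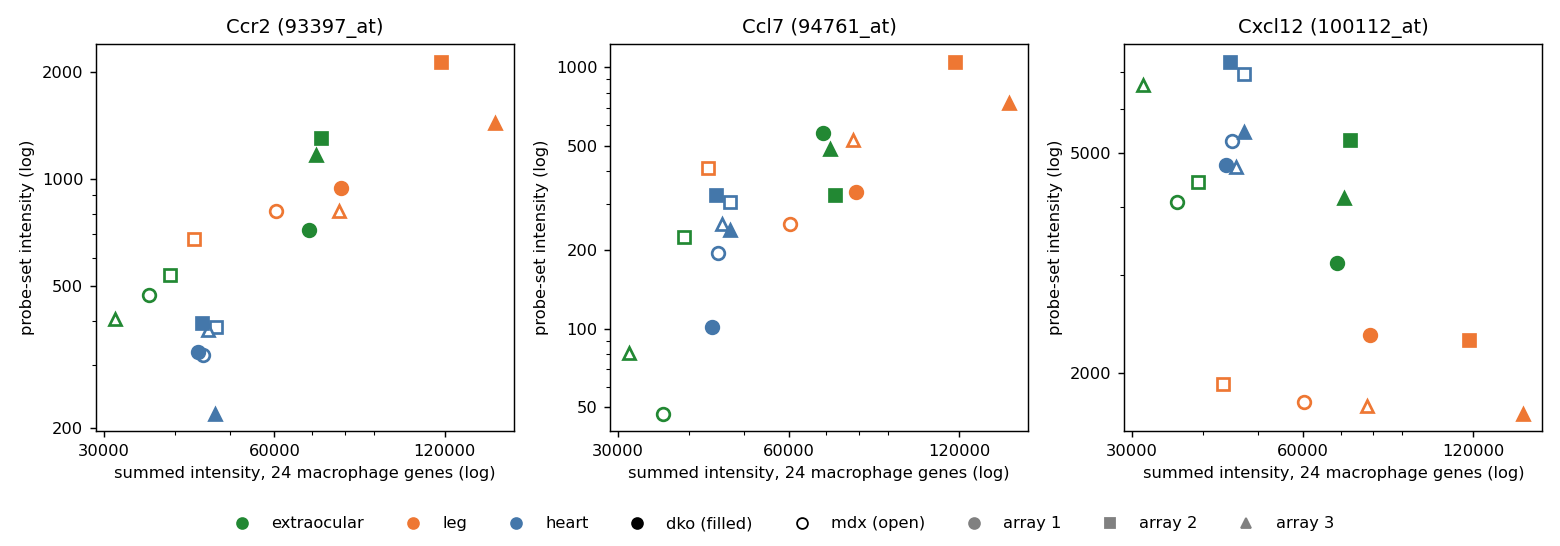
Intensity of Ccr2, Ccl7 and Cxcl12 (100112_at) against the summed intensity of 24 macrophage genes on the same array (both log scales), coloured by tissue, filled for dko and open for mdx, with marker shapes for arrays 1, 2 and 3. Ccr2 and Ccl7 follow the sum most closely (r 0.84 and 0.85 over 18 arrays), and the Cxcl12 probe set 100112_at runs against it (r -0.64). After the group means were subtracted, r was 0.48 for Ccr2, 0.48 for Ccl7 and -0.32 for 100112_at.

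Over the 18 arrays the log2 macrophage sum had an r of 0.85 with Ccl7, 0.84 with Ccr2, 0.76 with Ccl2, 0.74 with Ccl9, 0.72 with Ccl8 and 0.70 with Ccl6, and of -0.64, -0.01 and -0.49 with the Cxcl12 probe sets 100112_at, 160511_at and 162234_f_at. After the group means were subtracted it was 0.74 with Ccl9, 0.55 with Ccl6, 0.49 with Ccl2, 0.48 with both Ccl7 and Ccr2 and 0.38 with Ccl8. For the Cxcl12 probe sets 100112_at, 160511_at and 162234_f_at it was then -0.32, 0.05 and -0.24. The arrays share tissue, genotype and replicate number, so these values are descriptions. Markers of neutrophils (10 genes, 5 tested), T cells (10 and 3), mast cells (8 and 6) and endothelium (10 and 10) had 0 genes that passed between dko and mdx in any tissue by limma, with or without the block. At an unadjusted p under 0.05 without the block there were 1 of endothelium in extraocular muscle and 1 of mast cells in leg (2.21% and 6.26% of all), and none of neutrophils or T cells. With the block there were 2 of endothelium in each skeletal muscle, 2 of mast cells in leg and 1 of neutrophils in extraocular muscle (8.07% of all there, 17.8% in leg). In extraocular muscle, leg and heart, 0, 3 and 3 of the 10 endothelial genes and 3, 5 and 3 of the 6 mast cell genes read higher in dko. For neutrophils it was 1, 3 and 1 of 5, and for T cells 2, 2 and 0 of 3, beside 48.8%, 44.7% and 47.5% of all. Among 10 fibroblast and stroma genes, 9 of them tested, 1 rose in leg, Postn, which encodes the matrix protein periostin (1.24 ± 0.21, limma adjusted p 0.0475, and 0.0204 with the block). Of these 9, 8, 9 and 7 read higher in dko in extraocular muscle, leg and heart, with medians of 0.14, 0.28 and 0.10. Myh3 and Myh8, myosins of embryonic and newborn muscle that regenerating fibres also make, were the tested genes of an extraocular list of 4, and both were higher in leg dko. Myh3 averaged 1980.6 in leg mdx and 8707.4 in leg dko and rose by 2.04 ± 0.30 (limma adjusted p 0.0230, and 0.0141 with the block), and Myh8 rose with the block alone, by 1.08 ± 0.21 (adjusted p 0.0289, and 0.0856 without). Their part in the leg differences of the chemokines was not tested. Of the endothelial genes 10 of 10 were higher in heart than in leg, 8 of them past the test, with a median of 0.94, whereas of the 9 fibroblast and stroma genes 1 was higher and 7 fell, with a median of -0.65. Over all probe sets 50.5% were higher in heart than in leg and 19.1% passed. Between heart and leg, the endothelial direction was that of the Cxcl12 probe sets 100112_at and 162234_f_at, and the stromal direction that of 160511_at. Between extraocular muscle and leg all 3 probe sets were higher in extraocular muscle. There 8 of 10 endothelial genes were higher (median 0.49) and 4 of 9 stromal genes (median -0.02), beside 48.7% of all probe sets. The part of endothelial and stromal genes in the Cxcl12 differences was not tested.

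The genes most alike in pattern over the 18 arrays, by Pearson r of log2 values among 7968 probe sets of other genes, were as follows. For Ccr2 they were Lyz2 (0.92), Ctsz (0.91) and Mest (0.91), and for Ccl2 they were Capza1 (0.88), Grn (0.85) and Tyrobp (0.81). Ccl7 was followed by Capza1 (0.87), D17H6S56E-5 (0.87) and Ctss (0.85). Ccl6 was followed by Cd53 (0.88), Dap (0.80) and Arfgap3 (0.78), and Ccl9 by Tmem176b (0.90), Ifi30 (0.85) and Atp6v1a (0.84). Ccl8 was most like Anxa1 (0.92), Col6a1 (0.90), and Rnf149 (0.89), and Cxcl12, by 100112_at, was most like Ndrg4 (0.94), Slc4a3 (0.93) and Sptbn1 (0.92). After the mean of each replicate number was subtracted, the nearest genes were Basp1 for Ccr2 (0.94), C3ar1 for Ccl2 (0.90), Cdk1 for Ccl7 (0.92), Arfgap3 for Ccl6 (0.89), Cstb for Ccl9 (0.89), Col5a1 for Ccl8 (0.93) and Ephb6 for Cxcl12 (0.95).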

How the data were processed

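The intensities were analysed as deposited in the authors' series matrix, on a linear scale, 1 value a probe set and array. The software, detection calls and scan dates are not given in the sources used here. The files show means between 1500.69 and 1501.15 after trimming 2% at each end, 0 identical arrays and 0 columns of other series. Control probe sets (66) were left out, and 10833 of the rest had 1 gene symbol, 396 several and 1193 none. Probe sets above the 40th percentile of an array on at least 3 arrays (8888, of 6551 genes) were tested with limma 3.58.1 in R 4.3.3 on log2(intensity + 166.7), all 6 groups in 1 fit, with Benjamini-Hochberg adjustment over all 8888 and a threshold of 0.05. The number of arrays limits the precision. The labels state replicate numbers and no pairing of samples. Same-numbered arrays of a tissue deviated alike (r 0.40 to 0.75 in all 9 pairs, median 0.61). Same-numbered arrays of different tissues did so nearly as much (r 0.33 to 0.74 in 36 pairs, median 0.54), so the number is not shown to mark matched samples. Values with the number as a block are given where they change a call. The steps were tested on simulated data that held no effect of the replicate number and no tissue differences. The block was therefore not checked under deviations shared by same-numbered arrays. Genes were named by the rule that takes every member, the fixed gene lists and, per member, the 3 genes of most similar pattern. Markers for heart, leg and extraocular muscle checked the labels. The members and lists were chosen with earlier results of these data known. Alternatives were the block, 2 other offsets, no filter or a stricter one, 75th percentile and quantile scaling, leaving out arrays, and single genotypes; the combinations of the block with another choice, and the Cxcl12 ratio, were added after seeing the data. Plots used matplotlib 3.10.9.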

Additional observations from a re-analysis of the deposited data

How the results depend on the processing

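Of the 9 probe sets, 0 passed between the genotypes in leg and on average over tissues without the replicate block. With the block 1 passed in leg, and also with the median offset, no filter, the stricter filter or either other scaling (1 each), and 1 on average (2 with the median offset or the stricter filter, 1 with either scaling); leaving out 1 array gave 0 to 1 for each. Between extraocular muscle and leg 3 passed, 5 with the block, 1 in mdx alone and 0 in dko alone (3 to 6 when 1 array was left out, with or without the block). Between heart and leg 3 passed in mdx alone, and between extraocular muscle and heart 1 (3 to 5 when 1 array was left out). The share of all probe sets called between heart and leg was 19.1% without the block and 35.5% with it. Shares are not given here for the other settings, so a change in these counts may reflect calling as a whole. Directions turned in uncalled differences alone. The difference in the genotype effect of Ccl9 between extraocular muscle and leg became 0.000346 with offset 32, 0.00821 with 75th percentile scaling and 0.00567 with quantile scaling, with and without the block. For Ccl7, extraocular muscle less heart became -0.0260 with offset 32 and -0.595 in mdx alone. The mean genotype difference of Cxcl12 (100112_at) became 7.05e-05 with 75th percentile scaling. Without the arrays numbered 3, with and without the block, it became 0.0744, the heart genotype differences of Ccl6, Ccr2 and 100112_at 0.0248, 0.0220 and -0.0335, and the effect differences of Ccr2 (extraocular muscle less leg) and 160511_at (heart less leg) -0.0465 and -0.0406. Without those arrays, extraocular muscle less leg was 0.117 for Ccl6 and 0.0447 for Ccl8, and heart less leg 0.0117 for Ccl6. In mdx alone, extraocular muscle less leg was 0.0380 for Ccl6 and 0.129 for Ccl8, heart less leg 0.172 for Ccl6, and extraocular muscle less heart -0.351 for Ccl2 and -0.134 for Ccl6. When 1 array was left out, with or without the block, the heart genotype differences ran from -0.249 to 0.0248 for Ccl6, -0.334 to 0.105 for Ccl7, -0.129 to 0.489 for Ccl8, -0.00735 to 0.498 for Ccl9, -0.270 to 0.0220 for Ccr2, and -0.123 to 0.203, -0.0739 to 0.215 and -0.198 to 0.00884 for 100112_at, 160511_at and 162234_f_at. For 160511_at they ran from -0.281 to 0.184 in extraocular muscle, -0.182 to 0.349 in leg and -0.0502 to 0.127 on average, for 162234_f_at from -0.00527 to 0.193 in leg, and for 100112_at from -0.0890 to 0.0642 on average. Effect differences ran from -0.315 to 0.386 for Ccl9, -0.123 to 0.404 for Ccr2 and -0.406 to 0.118 for 160511_at (extraocular muscle less leg), -0.368 to 0.0962 for 160511_at (extraocular muscle less heart), and -0.769 to 0.199 for Ccl2, -0.316 to 0.00932 for 100112_at and -0.261 to 0.221 for 160511_at (heart less leg). Extraocular muscle less leg ran from -0.144 to 0.0388 for Ccl6 and -0.179 to 0.213 for Ccl9, and extraocular muscle less heart from -0.111 to 0.225 for Ccl7. The causes were not tested. The replicate block changed no call beyond those given beside the results. With 3 arrays a group and no detection calls, dim probe sets such as Ccl7 may be near background.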
